A study of Mus musculus with 32 samples.

Results

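Mitochondrial complex I, the NADH:ubiquinone oxidoreductase, takes electrons from NADH, passes them to ubiquinone and pumps protons across the inner mitochondrial membrane. It is L-shaped: a matrix arm holds the flavin and the iron-sulfur clusters, and a membrane arm holds the proton pumps. Core subunits do the chemistry and are encoded partly in the nucleus and partly in mitochondrial DNA, and a shell of nuclear-encoded accessory subunits surrounds them. In brain the complex supports the high ATP demand of neurons.

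The genes described here are the nuclear-encoded subunits, chosen by name: every gene symbol made of Nduf, one of the letters a, b, c, s or v and a number, plus Ndufab1, with the assembly factors of the Ndufaf series left out. There were 39 such genes among the 22337 genes of the deposited tables. By place in the complex, 7 were core subunits, 9 accessory subunits of the matrix arm, 9 of the proximal and 11 of the distal membrane arm, and Ndufab1, the mitochondrial acyl carrier protein, sits in both arms. The name also takes in Ndufa4, which is now assigned to complex IV, and Ndufb11b, a copy of Ndufb11 on chromosome 15. Ndufb11b was listed at 0 in every library, and how reads shared with Ndufb11 were assigned was not tested; all statements below are on the other 38 genes, each of which passed the filter on low values in every tissue.

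RNA-seq had been made from hippocampus, meninges and sorted meningeal lymphatic endothelial cells (LEC) of wild-type (WT) mice, 5xFAD mice and 5xFAD mice given light (5xFAD+L), all 6 months old. 5xFAD mice carry mutant human transgenes under the neuronal Thy1 promoter on a C57BL/6J background, the WT mice were littermates without the transgenes, and the light was near-infrared light given through the skull, while untreated mice had the same anaesthesia and shaving under room light. Hippocampus had 4 libraries in each condition, and meninges and LEC had 4 WT, 3 5xFAD and 3 5xFAD+L libraries, each from a single mouse. LEC were gated as CD45-, CD31+ and PDPN+ cells. Sex is given for the 5xFAD mice, which were male.

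Libraries held 13952825 to 23856476 counts in hippocampus, 6601143 to 14708202 in meninges and 14231415 to 24207326 in LEC. In LEC, 5998 to 9020 genes had a count, against at least 16371 in any tissue library. In hippocampus, summed neuronal markers (8 genes) were at least 2100 FPKM in each library, and the summed microglia and macrophage markers (6 genes) were 234 to 249 FPKM in WT, 910 to 1640 in 5xFAD and 644 to 1230 in 5xFAD+L. FPKM is a count divided by transcript length and library size. The meninges libraries also held choroid plexus transcripts, with Ttr at 15300 to 48500 FPKM, and pineal transcripts, with Tph1 at 57.3 to 623 FPKM. Summed erythroid markers there were 5040 to 48500 FPKM and summed neutrophil markers 496 to 6890 FPKM, both highest in 5xFAD+L replicate 1. In LEC, the 6 lymphatic markers summed to 227 to 9780 FPKM, with the widest range for Ccl21a, which was at 0 in 1 WT library and up to 9360 FPKM. Of the others, Pecam1 (189 to 398 FPKM) and Flt4 (3.83 to 81.6) were above 0 in each library. Prox1 (at most 5.71) was at 0 in 3 libraries, Lyve1 (at most 89.2) in 2 and Pdpn (at most 77.6) in 4. The paper treats Pecam1 as a blood vessel marker, so the sums of the 6 are not lymphatic alone and hold at least 189 FPKM of it. The 4 blood endothelial markers summed to 573 to 3010 FPKM, led by Cldn5 at 159 to 2050. In such bulk samples, fewer cells of a type and less RNA per cell cannot be told apart.

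Complex I subunit genes are scattered over the genome: the 39 genes lay on 16 chromosomes, with 2 (Ndufa1 and Ndufb11) on the X. Their promoters were searched for the letters of 3 factors known for controlling respiratory genes, on both strands of the 250 bases before the start site. Of the members, 34 had a RefSeq promoter entry that was used. The consensus of NRF1, of which the capitals below are the matches, stood in 6 of these 34 (17.6%), against 4.23% of 27025 genes with an entry. The GABPA motif CCGGAAG stood in 3 of 34, or 8.82% (7.83% of all genes), and the YY1 motif in 0 of 34 (1.83% of all genes). The 6 stretches with the NRF1 letters are printed to show where in each promoter they lie and what surrounds them, with the match in capitals (alike by the search itself), 5′ to 3′ on the gene's strand (GRCm38.p6, RefSeq):
Ndufa11 (chr17:56717682-56717731, plus strand, match ending 50 bases before the start): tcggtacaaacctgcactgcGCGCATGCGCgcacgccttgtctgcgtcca
Ndufa8 (chr2:36049339-36049388, minus strand, 20 bases before): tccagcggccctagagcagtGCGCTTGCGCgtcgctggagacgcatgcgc
Ndufs5 (chr4:123718255-123718304, minus strand, 88 bases before): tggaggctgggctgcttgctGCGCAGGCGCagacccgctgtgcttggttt
Ndufa5 (chr6:24527687-24527736, minus strand, 180 bases before the more downstream of its starts): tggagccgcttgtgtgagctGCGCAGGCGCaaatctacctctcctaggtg
Ndufs6 (chr13:73328483-73328518, minus strand, 6 bases before): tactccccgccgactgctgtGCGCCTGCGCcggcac
Ndufb4 (chr16:37654530-37654579, minus strand, 181 bases before): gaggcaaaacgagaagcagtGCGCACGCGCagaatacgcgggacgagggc
A match describes letters and is not a measured binding site. Distances are to RefSeq starts. By the GENCODE coordinates used elsewhere in this text, the stretches of Ndufa8, Ndufa5 and Ndufs6 lie within the gene.

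The genes of the complex were transcribed at high and unequal levels. In WT hippocampus the mean level per gene ran from 72.4 FPKM (Ndufs1) to 826 FPKM (Ndufa4), an 11.4-fold range with a median of 234 FPKM. Ndufa4 and Ndufb9, a membrane-arm subunit at 711 ± 57.0 FPKM (SD, n = 4), stood above the rest, and Ndufb8 came next at 407 ± 27.8. At the low end were Ndufs1, a core subunit that holds several of the iron-sulfur clusters, Ndufa9 at 126 ± 4.57 and Ndufa10 at 147 ± 6.04. Core subunits that carry the redox chemistry lay between these ends: Ndufv1, which binds NADH and the flavin, at 180 ± 5.66, Ndufv2 at 277 ± 17.4, Ndufs3 at 173 ± 8.24, Ndufs7 at 318 ± 19.5 and Ndufs8 at 245 ± 18.2 FPKM. Neighbours in this order mostly lay closer to each other than their SD.

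The same gene order held across tissues only in part. Over the 38 genes, log2 mean FPKM in WT hippocampus and WT meninges had a Pearson r of 0.85, and each of them had an r of 0.50 or 0.51 with WT LEC, as a description across genes. In meninges the top was Ndufa4 (1140 ± 202), Ndufa2 (962 ± 253) and Ndufv3 (792 ± 185), and Ndufs1 was again lowest (36.6 ± 10.7). In LEC, which were quantified in a separate table so that levels can only be set side by side, the top was Ndufb10 (404 ± 89.3), Ndufb8 (396 ± 190) and Ndufs8 (314 ± 136), and the lowest were Ndufb1 (8.97 ± 5.87), Ndufs4 (12.1 ± 10.2) and Ndufs1 (18.6 ± 31.8 FPKM). Ndufs4, a matrix-arm subunit whose loss gives a Leigh-like disease in mice, was at 150 ± 2.82 FPKM in WT hippocampus.

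**Figure D1:**
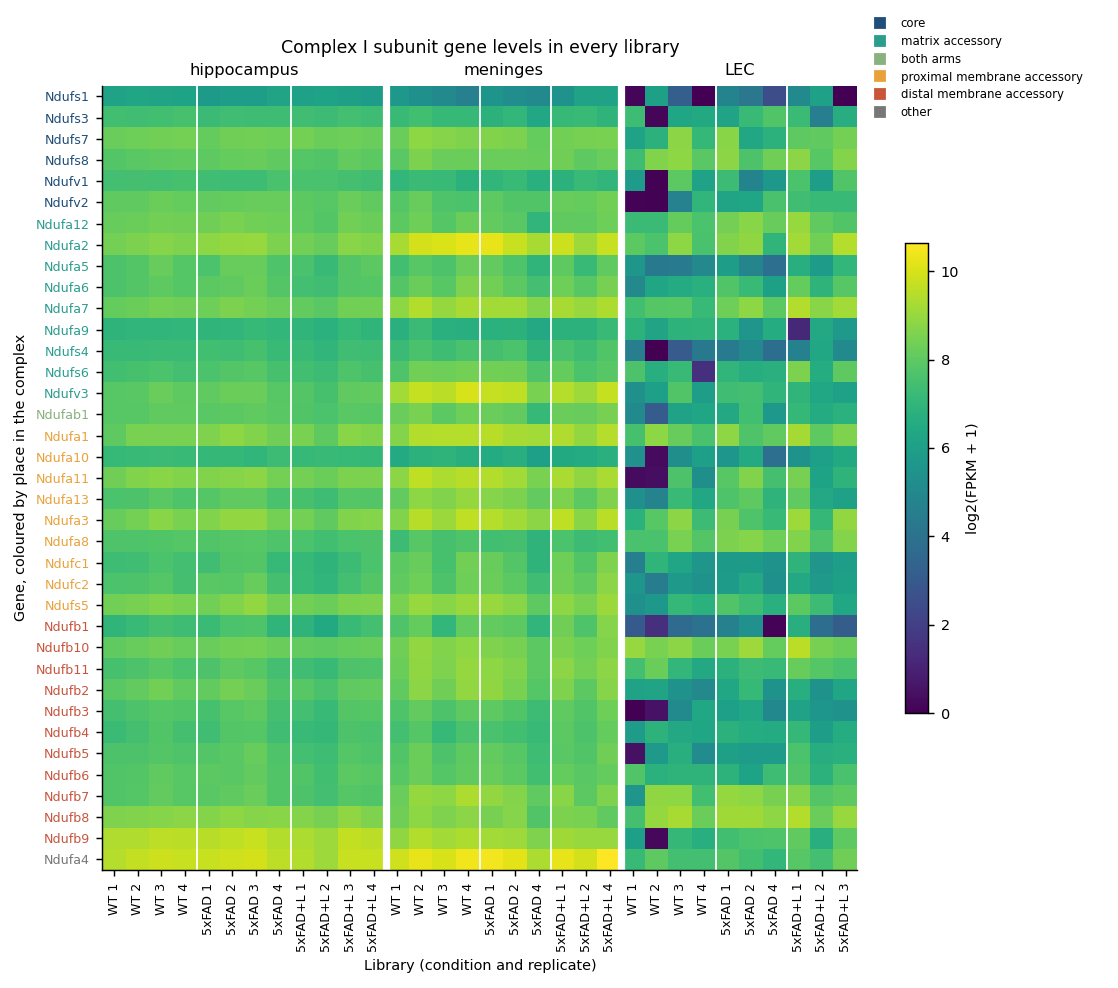
Level of 37 of the genes (rows, gene names coloured by place in the complex) in each of 32 libraries (columns), as log2(FPKM + 1). Hippocampal columns are nearly alike, meninges vary more, and LEC WT replicates 1 and 2 hold the most genes near 0.

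WT meninges and WT hippocampus differed in the mix of subunit genes rather than in one direction. In one fit over both tissues, 17 of 38 genes passed an adjusted p of 0.05 (edgeR quasi-likelihood test), 12 higher and 5 lower in meninges, a share below the 73.0% of all 15132 tested genes that passed. The members' median log2 difference was 0.23, and that of all genes 0.12.

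Ndufv3, a small matrix-arm subunit, had 581, 828, 735 and 1020 FPKM in the WT meninges libraries and 235, 242, 298 and 257 in WT hippocampus, with no overlap (log2 1.5 ± 0.22 SE, adjusted p = 4.6e-06). Ndufa2, a thioredoxin-like matrix-arm subunit, had 607, 991, 1040 and 1200 against 340, 369, 424 and 378 FPKM (log2 1.27 ± 0.23, adjusted p = 5.81e-05). Both were more than 2-fold higher in meninges, whereas Ndufs1 was lower.
Ndufs1 had 49.4, 39.8, 33.0 and 24.1 FPKM in meninges and 69.4, 74.6, 73.9 and 71.8 in hippocampus (log2 -1.07 ± 0.18, adjusted p = 1.92e-05). The other genes lower in meninges were Ndufa10 (log2 -0.58), Ndufv1 (-0.50), Ndufv2 (-0.36) and Ndufs3 (-0.30), so that 4 of the 5 were core subunits. The core subunits Ndufs7 and Ndufs8 did not pass the test.
The other genes higher in meninges were Ndufb11 (log2 0.93), Ndufb7 (0.92), Ndufa1 (0.84), Ndufa13 (0.84), Ndufa7 (0.74), Ndufa3 (0.70), Ndufa11 (0.68), Ndufs6 (0.63), Ndufc1 (0.63) and Ndufb10 (0.43), all accessory subunits.

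This split mostly followed transcript length. Among the genes that passed, Ndufa13 (1274 bases, log2 0.84) was the exception, being long and higher in meninges. The genes lower in meninges were all longer than 1000 bases, and the median log2 difference was 0.31 for the 30 members under 1000 bases and -0.33 for the 8 longer ones, next to 1.17 for all tested genes under 1000 bases and 0.02 for longer genes. The median length was 714 bases for the members and 2708 bases for all genes tested in hippocampus. When each library's trend of counts on length was removed, 34 members passed and all 34 were lower in meninges (median log2 -0.82, against -0.01 over all genes). Before this correction 73.0% of all genes passed. The share of all genes in the corrected fit is not given here, so the count of 34 has no background beside it. Ndufv3 was then at log2 0.05, Ndufb11 at 0.11 and Ndufa2 at -0.09, and Ndufs1 stayed at -1.01 (adjusted p = 1.15e-05). The direction for most members thus depended on this correction. Genes under 1000 bases held 10.9 to 12.9% of counts in WT hippocampus and 18 to 23% in WT meninges, and the part of this in the result was not tested.

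**Figure D2:**
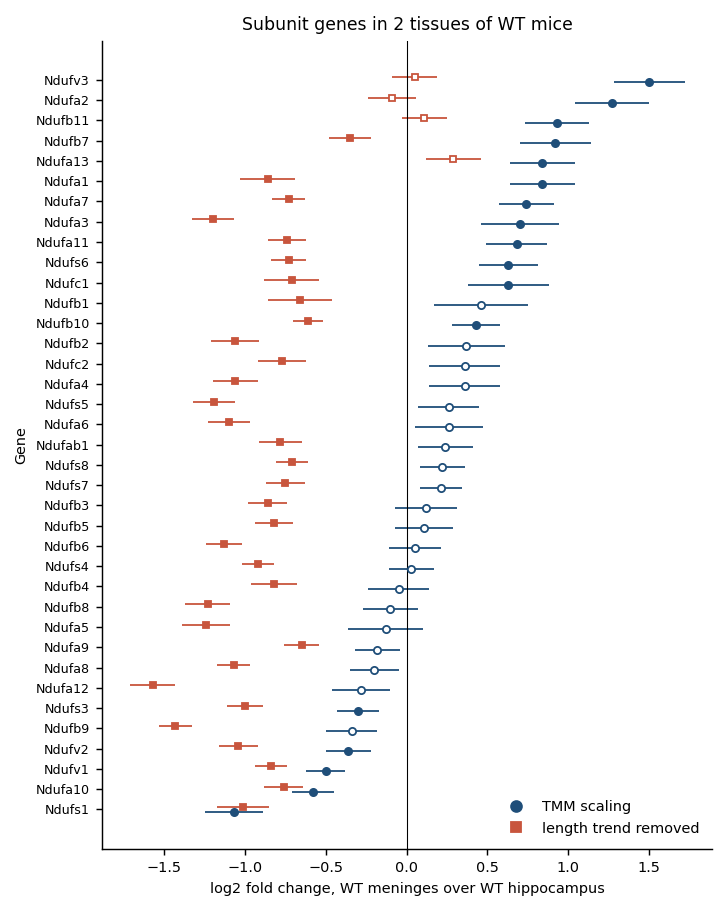
Log2 fold change of 37 genes between WT meninges and WT hippocampus (x axis, genes on the y axis, bars are SE) with TMM scaling (circles) and with the length trend removed (squares). Filled symbols have an adjusted p under 0.05; 17 circles and most squares are filled, and nearly all squares lie left of 0.

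In hippocampus, the comparison of 5xFAD with WT asks what the disease model changes, and no subunit gene passed the test. By edgeR, 0 of 38 members had an adjusted p under 0.05, against 8.54% of 12981 tested genes, the smallest member value being 0.224; 0 had an unadjusted p under 0.05, against 24.0% of all genes, and DESeq2 and limma also called 0. Fold changes were small and mostly of one sign: 31 members were higher in 5xFAD (81.6%, against 52.1% of all genes), with a median log2 of 0.10 and a range of -0.19 to 0.29. All 11 distal membrane-arm and all 9 matrix-arm accessory genes had a value above 0, while 5 of the 7 core genes had one below 0.

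Ndufa2 had 340, 369, 424 and 378 FPKM in WT and 452, 491, 518 and 374 in 5xFAD, so that 1 5xFAD library lay within the WT range (log2 0.29 ± 0.15, adjusted p = 0.256). Ndufs1 had 69.4, 74.6, 73.9 and 71.8 FPKM in WT and 55.1, 61.0, 61.4 and 73.3 in 5xFAD (log2 -0.19 ± 0.09, adjusted p = 0.224). In both genes 5xFAD replicate 4 was the library that resembled WT.
Ndufs3, a core subunit near the ubiquinone site (chr2:90894634-90904827), was the member whose hippocampal groups did not overlap, with 169, 168, 169 and 185 FPKM in WT and 154, 167, 161 and 160 in 5xFAD. Its log2 fold change was -0.10 ± 0.08 (adjusted p = 0.496), and 14.5% of all genes had groups that did not overlap. Without the length trend Ndufs3 was the member that passed, lower in 5xFAD (log2 -0.24 ± 0.07, adjusted p = 0.0425). The share of all genes that passed in that fit is not given here (8.54% before the correction), so 1 call does not set the members apart. Ndufs6, Ndufb5 and Ndufs8 had log2 values of 0.21, 0.19 and 0.15, none past the test.

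The comparison of 5xFAD+L with 5xFAD asks what light changes in the model. Again 0 of 38 hippocampal members passed an adjusted p of 0.05, as did 0.455% of all genes, with the smallest member value 0.164. At an unadjusted p under 0.05 there were 6 members, all lower with light (15.8%, against 18.3% of all genes), so their share was near the background. DESeq2 and limma called 0 after adjustment. In sign, 32 of 38 were lower (84.2%, against 52.5% of all genes), with a median log2 of -0.19 (all genes -0.02). The members with the lowest values were accessory, and 5 of 7 core genes had a value above 0.

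Ndufa6, which anchors the acyl carrier protein in the matrix arm, had 249, 267, 303 and 222 FPKM in 5xFAD and 176, 164, 224 and 225 with light (log2 -0.41 ± 0.14, adjusted p = 0.164; exact permutation test on log2(FPKM + 1), two-sided p = 0.0857). Ndufc2, a membrane-arm subunit, had 242, 237, 285 and 180 against 147, 126, 178 and 221 FPKM (log2 -0.49 ± 0.18, adjusted p = 0.181; exact p = 0.0571). In both genes the groups overlapped by 1 or more libraries.
Ndufa8, an intermembrane-space accessory subunit with a cysteine motif (chr2:36036326-36049406), had 216, 226, 236 and 211 FPKM in 5xFAD and 197, 173, 197 and 204 with light, with no overlap (log2 -0.20 ± 0.09, adjusted p = 0.25; exact p = 0.0286, the smallest that 4 against 4 can give). Its WT libraries were at 211, 207, 213 and 227 FPKM, all above the 5xFAD+L libraries. Ndufb10, of the same protein kind, had 293, 328, 344 and 295 against 272, 253, 280 and 291 FPKM. These were the 2 members without overlap, and 7.63% of all genes had none.
Ndufb7, Ndufa2 and Ndufb5, the other members with an unadjusted p under 0.05, had log2 values of -0.31, -0.34 and -0.28, with adjusted p from 0.227 to 0.25. Among the core genes, Ndufv1 had 0.08, Ndufs1 0.05, Ndufs3 0.04 and Ndufs7 0.01, while Ndufv2 had -0.13 and Ndufs8 -0.17. Ndufab1 was at -0.14, Ndufs4 at -0.13 and Ndufa4 at -0.26, none past the test.

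Between 5xFAD+L and WT in hippocampus, 0 members passed (3.59% of all genes; smallest adjusted p 0.448), 0 had an unadjusted p under 0.05 (16.7% of all genes), and the median log2 was -0.09 with 34 members lower. The members with the smallest p were Ndufab1 (log2 -0.17), Ndufb7 (-0.21), Ndufa8 (-0.14), Ndufs1 (-0.14) and Ndufa6 (-0.20). Ndufa8 was the member without overlap, and 14.9% of all genes had none. This contrast shares its libraries with the other contrasts and is no separate evidence.

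**Figure D3:**
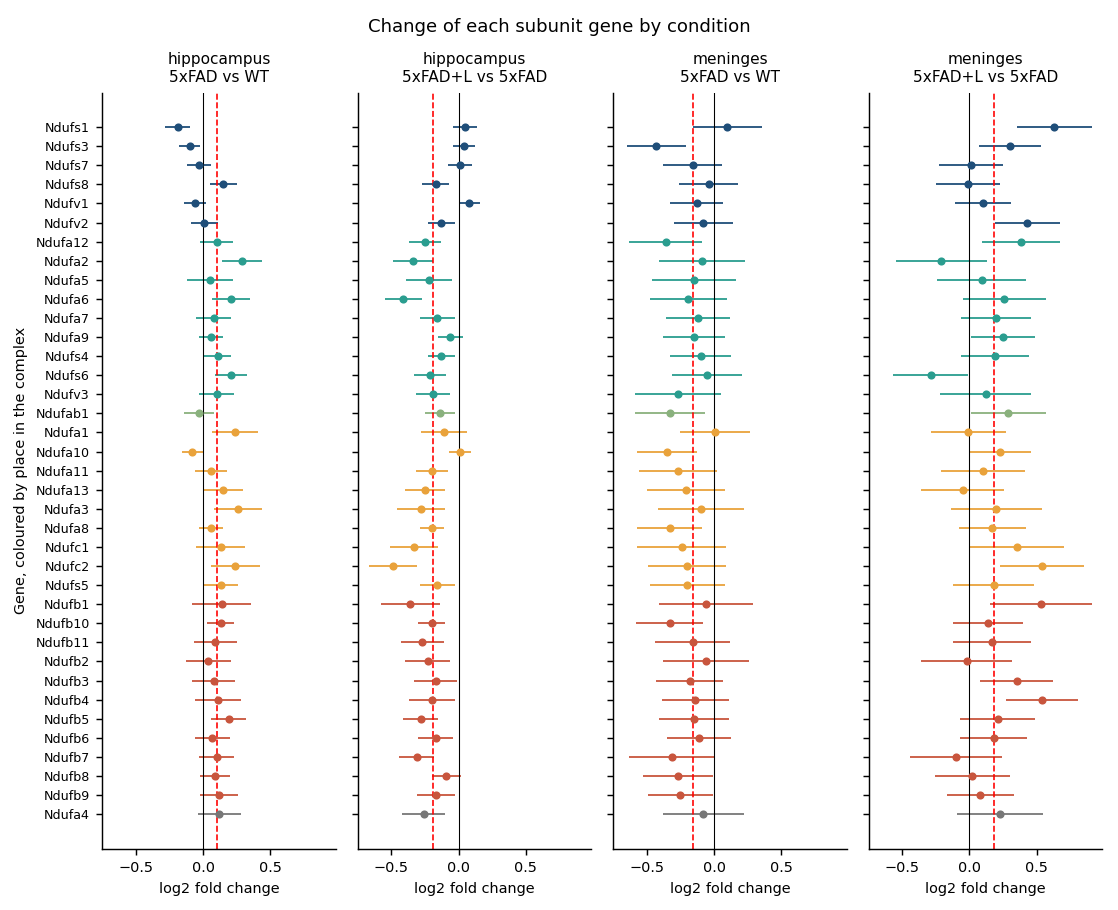
Log2 fold change of 37 genes (rows, coloured by place in the complex as in the plot of levels) with SE bars in 4 contrasts (panels); the red dashed line is the median of all 38. Medians are 0.10 and -0.19 in hippocampus and -0.16 and 0.18 in meninges, and no gene has an adjusted p under 0.05.

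The hippocampal values moved with single libraries and with short transcripts in general. The summary level of the 38 genes (mean log2(FPKM + 1)) was 7.80, 7.90, 8.05 and 7.95 in WT, 7.92, 8.09, 8.13 and 7.86 in 5xFAD, and 7.77, 7.59, 7.97 and 7.94 in 5xFAD+L. The highest library, 5xFAD replicate 3, also had the highest share of counts on genes under 1000 bases (16.6%) and of mitochondrial counts (10.7%), and the lowest, 5xFAD+L replicate 2, had the lowest share on short genes (10.2%). Without 5xFAD replicate 3 the median of 5xFAD against WT was 0.03 and that of light -0.14, and without 5xFAD+L replicate 2 the median of light was -0.09 and that of 5xFAD+L against WT 0.00. With either left out, 1 member had an unadjusted p under 0.05 for light in place of 6. The share of all genes in these smaller fits is not given here (18.3% with all libraries). Whether the members fell more than other genes was not tested.
All genes under 1000 bases had median log2 values of 0.21 (5xFAD against WT) and -0.23 (light), where the 30 members of that length had 0.11 and -0.20. The 8 longer members had -0.06 and 0.02. With the length trend removed, the members' medians were -0.12 and 0.04, the opposite signs, so that the sign depended on this correction. Summed neuronal markers (8 genes) were 2390 to 2630 FPKM in WT, 2100 to 2470 in 5xFAD and 2120 to 2280 in 5xFAD+L. Summed choroid plexus markers differed more between libraries, at 109, 2810, 405 and 33.5 FPKM in WT hippocampus. They were at 3210, 2930, 695 and 205 FPKM in 5xFAD and 126, 111, 60.8 and 240 in 5xFAD+L. The part of these markers and of the microglia markers in the values was not tested.

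**Figure D4:**
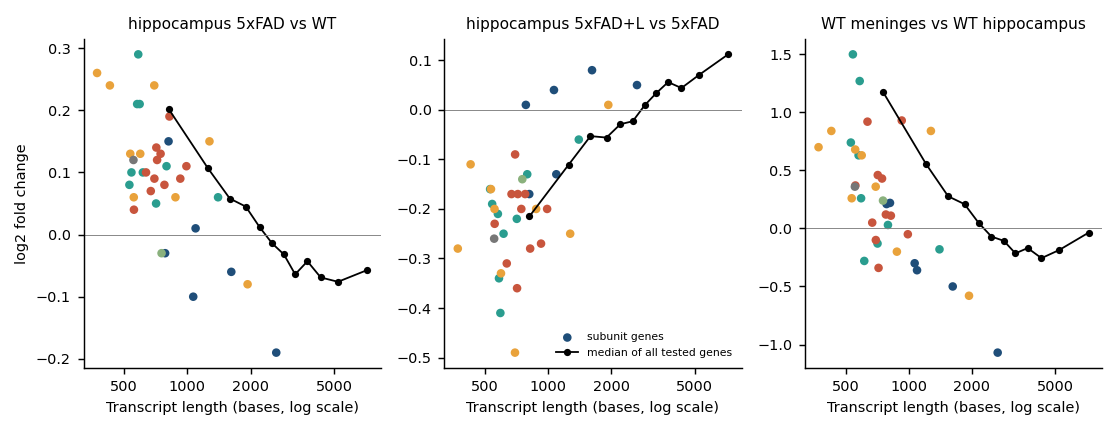
Log2 fold change of 37 genes (points, coloured by place in the complex) against transcript length (log axis) in 3 comparisons (panels), with the median of all tested genes in 12 bins of length (black line). The members lie at the short end, where the line is farthest from 0.

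**Figure D5:**
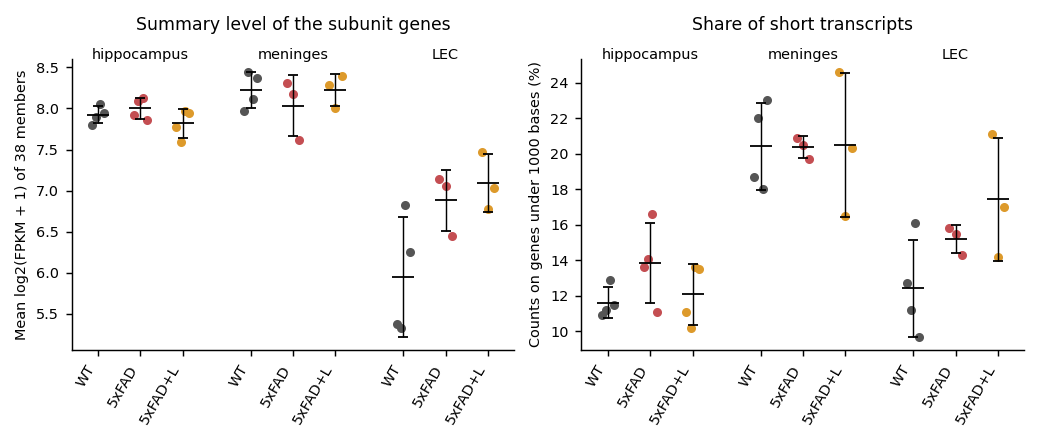
Left, summary level of the 38 genes per library (points), with group mean and SD; right, percentage of a library's counts on genes under 1000 bases. The hippocampal groups overlap in both, and 5xFAD replicate 4 of the meninges lies lowest in its tissue at 7.61.

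In meninges the medians over all members had the reverse signs of those in hippocampus, and again no gene passed. The core subunits did not share this reversal. In 5xFAD against WT, 5 of 7 core genes were lower in hippocampus and 6 of 7 in meninges. With light, 5 of 7 were higher in hippocampus and 6 of 7 in meninges. With the length trend removed, the medians over all members had the same signs in both tissues. For 5xFAD against WT, 0 of 38 members had an adjusted p under 0.05 by edgeR, DESeq2 or limma, as did 0.0% of 14318 tested genes, and 0 had an unadjusted p under 0.05 by edgeR (4.01% of all genes). The values were below 0 for 36 members (94.7%, against 50.4% of all genes), with a median log2 of -0.16.
Ndufs3, again without overlap, had 143, 172, 140 and 138 FPKM in WT and 115, 131 and 82.9 in 5xFAD (log2 -0.43 ± 0.22, adjusted p = 0.987; exact p = 0.0571, the smallest that 3 against 4 can give). It was the member without overlap, and 4.85% of all genes had none. With light it had 141, 142 and 121 FPKM, between the lowest 5xFAD and the highest WT library. Ndufa10, Ndufa12, Ndufa8 and Ndufb10 followed with log2 values of -0.35, -0.36, -0.33 and -0.33, and their groups overlapped.

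For light in 5xFAD meninges, 0 members passed (0.014% of all genes; smallest adjusted p 0.38), with 0 also by DESeq2 and limma, and 1 had an unadjusted p under 0.05 (2.63%, against 12.7% of all genes). In sign 31 were higher (81.6%, against 53.0%), with a median log2 of 0.18. Ndufs1, the largest, had 44.3, 36.6 and 32.2 FPKM without and 42.5, 70.1 and 69.7 with light (log2 0.63 ± 0.28, adjusted p = 0.38), so that 1 light library lay within the untreated range. Against WT, Ndufs1 was at log2 0.72 ± 0.26 (adjusted p = 0.198).
Ndufb4, of the distal membrane arm, had 191, 169 and 144 FPKM without and 249, 200 and 275 with light (log2 0.54 ± 0.27, adjusted p = 0.412). Ndufv2, the core subunit that holds an iron-sulfur cluster next to the flavin, had 253, 217 and 213 against 290, 276 and 332 FPKM (log2 0.43 ± 0.24, adjusted p = 0.456). Both had no overlap, with an exact p of 0.1, which is the smallest that 3 against 3 can give, and 20.8% of all genes had no overlap. Ndufc2 and Ndufb1 had log2 values of 0.54 and 0.53 and overlapped.
Between 5xFAD+L and WT, 0 members passed (0.014% of all genes; smallest adjusted p 0.198), 1 had an unadjusted p under 0.05 (16.4% of all genes), and 18 were higher and 20 lower. After Ndufs1, the smallest p belonged to Ndufb4 (log2 0.40), Ndufv2 (0.35), Ndufb1 (0.47) and Ndufs6 (-0.34). The groups of 0 members were without overlap, against 12.3% of all genes.

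Both meningeal shifts rested on 1 library. Replicate 4 of 5xFAD had a summary level of 7.61, against 8.31 and 8.18 in the other 5xFAD libraries, 7.97 to 8.44 in WT and 8.01 to 8.39 with light. Its subunit genes held 0.663% of counts, where the other meninges libraries had 0.801 to 1.148%, its mitochondrial share was the highest at 9.38%, and its summed pineal markers were the lowest at 74.0 FPKM (242 to 697 in the other 9 libraries). Without it the median of 5xFAD against WT was 0.00 with 19 members higher, and that of light was 0.01 with 20 higher. With the length trend removed the medians were -0.07 (11 higher) and 0.04 (23 higher). The coefficient of biological variation was 0.35 in meninges and 0.198 in hippocampus, so that the absence of calls does not show that levels were alike.

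The opposite signs of the medians in hippocampus and meninges were followed by a direct test of each gene. For the light effect in meninges minus that in hippocampus, 0 of 38 members passed by edgeR, DESeq2 or limma (1.05% of 15132 genes), with the smallest adjusted p 0.123, and 4 had an unadjusted p under 0.05, all above 0 (10.5%, against 19.8% of all genes). The median difference was log2 0.31 (all genes 0.06), with 35 members above 0 (92.1%, against 53.7% of all genes). Ndufc2 had the largest (1.01 ± 0.34, adjusted p = 0.123). For the 5xFAD effect in meninges minus that in hippocampus, 0 passed (1.74% of all genes, smallest adjusted p 0.404), and 0 had an unadjusted p under 0.05 (12.8% of all genes). The median was -0.28 (all genes -0.11), with 37 members below 0 (97.4%, against 59.6% of all genes). All genes under 1000 bases had medians of 0.41 (light) and -0.41 (5xFAD), where the 30 members of that length had 0.33 and -0.32. Without meninges 5xFAD replicate 4 the medians of the 38 members were 0.16 and -0.13, and with the length trend removed they were -0.02 and 0.05.

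In LEC the subunit genes were listed at widely varying levels within a group, and no contrast passed. Members at exactly 0 were Ndufs1, Ndufs4 and Ndufb3, in 4 libraries, and WT replicates 1 and 2 had 6 and 8 members below 1 FPKM. The summary level was 5.38, 5.32, 6.83 and 6.25 in WT, 7.14, 7.05 and 6.45 in 5xFAD, and 7.47, 6.78 and 7.03 in 5xFAD+L. The WT libraries thus spread over a wider range than the difference between 5xFAD and 5xFAD+L.

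Of 38 members, 0 passed an adjusted p of 0.05 in each of the 3 contrasts by edgeR, DESeq2 and limma, where 0.0% (5xFAD against WT), 0.0% (light) and 0.0122% (5xFAD+L against WT) of 8188 genes did. At an unadjusted p under 0.05 there were 0, 0 and 1 members, where 3.81%, 4.01% and 6.72% of all genes had one. The medians were 0.32, 0.25 and 0.58, and with the length trend removed -0.58, 0.34 and -0.17, where those of all genes were -1.17, 0.63 and -0.63. With the replicate number as a block the median for light was -0.02. The coefficient of biological variation was 1.89 in LEC, so that the absence of calls there does not show that levels were alike.
Ndufa7, a matrix-arm subunit, had 170, 231, 235 and 143 FPKM in WT, 310, 462 and 245 in 5xFAD and 691, 434 and 570 in 5xFAD+L, and was the member with the smallest p (5xFAD+L against WT, log2 1.38 ± 0.64, adjusted p = 0.74). Its 5xFAD+L libraries lay above all WT libraries and overlapped with 5xFAD.
For light, Ndufb11 had 115, 157 and 149 FPKM in 5xFAD and 285, 225 and 190 in 5xFAD+L, and Ndufb5 had 64.7, 58.9 and 55.7 against 198, 99.2 and 107. Ndufv3 went down, from 164, 178 and 123 to 123, 81.0 and 66.7 FPKM. These 3 members were without overlap, and 10.1% of all genes were. For 5xFAD against WT, Ndufa12, Ndufa7 and Ndufb9 lay without overlap, and 6.23% of all genes did. For 5xFAD+L against WT, 7 members lay without overlap, all above WT (Ndufa5, Ndufa6, Ndufa7, Ndufab1, Ndufc2, Ndufs4 and Ndufv2), and 5.67% of all genes had no overlap. Among them Ndufv2 had 0.09, 0.03, 25.5 and 126 FPKM in WT and 168, 145 and 142 in 5xFAD+L (log2 2.05 ± 1.69, adjusted p = 1.0), and Ndufab1 had 32.4, 7.6, 68.5 and 78.4 against 135, 91.5 and 111. In WT, Ndufv2 ran from 0.03 to 126 FPKM, near 0 in replicates 1 and 2, and Ndufab1 ran from 7.6 to 78.4 FPKM.
Summed lymphatic markers (6 genes, Pecam1 among them) were 227 to 6950 FPKM in WT, 1360 to 4670 in 5xFAD and 3210 to 9780 in 5xFAD+L. WT replicates 2 and 4 had the lowest lymphatic level, with a mean log2(FPKM + 1) of 2.48 and 2.61, where the other 8 LEC libraries had 4.62 to 6.94. Without both, the medians were 0.24 (5xFAD against WT) and 0.43 (5xFAD+L against WT), and 0 members passed.

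In hippocampus and meninges the subunit genes varied together from mouse to mouse, and in LEC less so. After group means were taken off, the first principal component held 87.6% of the variance of the 38 genes in hippocampus (12 libraries), 82.4% in meninges (10) and 44.4% in LEC (10), where it held 30.2%, 28.0% and 21.2% over all tested genes. The median pairwise correlation was 0.84 in hippocampus, 0.80 in meninges and 0.19 in LEC, where 63.3% of pairs were above 0, as a description over libraries whose depth and length bias are shared. The exceptions named here for the tissues were longer than 1000 bases: in hippocampus Ndufs1 and Ndufv1 had correlations of -0.40 and -0.33 with the mean of the other members, and Ndufa10 of -0.01. In meninges Ndufs1 (-0.02) and Ndufv1 (0.32) were again lowest. In LEC the lowest were Ndufb11 (-0.58) and Ndufb6 (-0.44), both under 1000 bases.

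The other genes of the pathway gave the same picture of no calls by condition. The 7 subunits encoded in mitochondrial DNA (mt-Nd1 to mt-Nd6 and mt-Nd4l), which form the membrane core, had 0 calls. Their medians were log2 0.32 (7 of 7 above 0) for 5xFAD against WT and -0.08 for light in hippocampus, and 0.42 and -0.37 in meninges, the meningeal signs being opposite to those of the nuclear genes. In meninges, 5xFAD replicate 4 had their highest mean log2(FPKM + 1), at 11.74. The other 5xFAD libraries had 11.19 and 10.82, WT had 10.76 to 10.9 and light 10.17 to 11.31. The part of this 1 library in the medians was not tested. Of 18 assembly factors tested in hippocampus and meninges, 0 passed in any condition contrast, with a hippocampal median of -0.02 for light (11 lower, 7 higher) and a meningeal one of 0.26 (15 higher, 3 lower). Ndufaf6 and Tmem186, both assembly factors, had log2 0.70 ± 0.30 and 0.59 ± 0.25 with light in meninges (adjusted p = 0.373 and 0.353).
For light in hippocampus, complex III (9 genes tested, 9 lower, median -0.14), complex IV (16 tested, 15 lower, -0.36) and complex V (16 tested, 13 lower, -0.17) had the sign of complex I, and complex II (4 tested, 3 lower) had a median of -0.10; 0 genes of the 4 complexes passed. In meninges these complexes had medians of 0.12 (III), 0.31 (IV), 0.18 (V) and 0.35 (II) for light. Replicate 4 of 5xFAD was lowest here, as it was for the nuclear complex I genes. It had a mean log2(FPKM + 1) of 7.86 for complex III, 6.23 for IV and 8.38 for V. The other 5xFAD libraries had 8.46 and 8.49, 6.87 and 7.07, and 9.17 and 9.28. The light libraries, at 8.38 to 8.47, 6.72 to 7.09 and 8.98 to 9.28, overlapped with these. Complex II and the assembly factors did not overlap in this way. For complex II the light libraries had 7.31, 7.64 and 7.27 and the 5xFAD libraries 7.13, 7.17 and 6.92, where WT had 6.99 to 7.45. The assembly factors had 4.23, 4.37 and 4.38 with light and 4.19, 4.16 and 3.87 in 5xFAD, where WT had 3.98 to 4.38. These levels of lists were not tested. Of single genes, 20.8% had no overlap between light and 5xFAD in meninges. Of 10 regulators of mitochondrial biogenesis, 0 passed in any condition contrast of hippocampus or meninges; the lowest adjusted p was that of the coactivator Ppargc1b in 5xFAD against WT hippocampus (log2 -0.34 ± 0.10, adjusted p = 0.0583), and Gabpa, an ETS factor, had log2 0.98 ± 0.23 in 5xFAD+L against WT meninges (adjusted p = 0.117).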

How the data were processed

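Total RNA of hippocampus and meninges, or sorted LEC, was made into Smart-seq2 libraries, which are primed on poly(A) tails. The authors deposited, per gene and library, an expected count and an FPKM value; the paper's methods name fastp and RSEM, while the submitters' processing notes name Trimmomatic, HISAT2, StringTie, DESeq2 and build mm10. Their comparison columns were not used. Expected counts were rounded, and genes with FPKM of at least 1 in at least 3 libraries of a tissue were tested with edgeR 4.0.16 (TMM, quasi-likelihood, all conditions of a tissue in one fit; R 4.3.3) with Benjamini-Hochberg adjustment over all of them. Hippocampus and meninges, in one table, were also fitted together. Members and lists were chosen with earlier results of these data known. Named were members past an adjusted p of 0.05, otherwise the 5 with the smallest p of a hippocampus or meninges contrast, plus core subunits, Ndufab1, Ndufa4, Ndufs4, the highest, the lowest and those without overlap (the last chosen after their values were seen). Gene coordinates are GENCODE's on GRCm38, and promoter stretches were placed by RefSeq starts. Transcript lengths were worked back from counts and FPKM, and the length correction fitted a lowess curve of log2 counts on length per library as an offset. The fits were tested on simulated data. Alternatives were DESeq2 1.42.0, limma on log2(FPKM + 1) or log2(FPKM + 0.1), other filters and scalings, a replicate block and single libraries left out. P-values measure the spread between mice. The joint fit treated each library as a separate mouse. Whether hippocampus and meninges libraries came from the same mice is not stated. The values of 1 member are counted in the summaries but not reported here singly.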

Additional observations from a re-analysis of the deposited data

Results flagged for a closer look

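In 6 of 165 groups of 4 libraries looked at, 1 library stood apart by Dixon's test (critical ratio 0.829), where chance gives about 8.25. In hippocampus WT, Ndufs3 was at 185 FPKM in replicate 4. In meninges WT, Ndufa9 was at 151 FPKM and Ndufs3 at 172 FPKM, each in the highest library. In LEC WT, Ndufa9 was at 73.7 FPKM in the lowest library, and Ndufs1 at 66.0 and Ndufv3 at 214 FPKM in the highest. None of the differences in effect between hippocampus and meninges passed an adjusted p of 0.05.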

How the results depend on the processing

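Removing the length trend changed most medians: hippocampus 5xFAD against WT went to -0.12 (with 1 member called), light in hippocampus to 0.04, WT meninges against WT hippocampus to -0.82 (34 called), the light and 5xFAD differences between the tissues to -0.02 and 0.05, and LEC 5xFAD and 5xFAD+L against WT to -0.58 and -0.17; in meninges 5xFAD and light went to -0.07 and 0.04. The shares of all genes called under this correction are not given here. Under it Ndufa2 between WT tissues was at -0.09, and Ndufs6, Ndufb5 and Ndufs8 in hippocampus 5xFAD against WT at -0.05, -0.01 and -0.04. The cause was not tested. No other setting turned the sign of the 5 members with the smallest p in a comparison outside LEC. The signs of the other named members were not followed across settings. Under no other setting did a condition contrast call a member. Without single libraries the tissue comparison called 13 to 17 members. Leave-one-out medians ran from 0.03 to 0.18 and -0.25 to -0.09 (5xFAD and light in hippocampus) and from -0.33 to 0.00 and 0.01 to 0.33 (meninges). With the replicate block, which pairs mice by number only (same-numbered deviations correlated by -0.32 to 0.26 in hippocampus and meninges), 0 members were called and the light medians were -0.20 in hippocampus, 0.18 in meninges and -0.02 in LEC. The libraries left out of the joint fit, and LEC WT replicates 2 and 4, were chosen after seeing the data. Meninges libraries had the lowest depth; LEC, at the depth of hippocampus, varied most between libraries (coefficient of biological variation 1.89, against 0.198 in hippocampus and 0.35 in meninges).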
